A study of Mus musculus with 15 samples.

Results

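Lcn4, Adgrb2, Abcb4, Abcc3, Rin2 and Padi3 are 6 mouse genes whose transcripts moved in opposite directions in CD4 and CD8 T cells during acute graft-versus-host disease (aGvHD), out of 4567 genes listed in 4 deposited tables. They were chosen by these same measurements: each was listed as differing from control cells in both CD4 and CD8 Flica-negative cells, and its mean went one way in CD4 cells and the other way in CD8 cells. Of 1444 genes listed in both of those tables, 7 had means that moved in opposite directions. The remaining gene, Ighj1, an immunoglobulin heavy chain joining segment, is named after its values were seen: it went from 0 to 4.84 normalized counts in control CD4 libraries to 7.05 to 84.9 in CD4 Flica-negative libraries, and from 21.5 to 47.1 in control CD8 libraries to 0 to 6.04 in CD8 Flica-negative libraries. Ighj1 is not described further.

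RNA was sequenced from 5 sorted populations of C57Bl6 T cells, with 3 libraries each, 15 in all. Control CD4 and control CD8 cells were Flica-negative splenic T cells of untreated, untransplanted wild-type mice on day 0. The CD4 Flica-negative, CD8 Flica-negative and CD8 Flica-positive cells came from spleens of lethally irradiated BALB/c recipients on day 7 after they were given C57Bl6 T cells with bone marrow. The Flica dye labels cells in which caspase-1 is active, and CD4 Flica-positive cells were not among the libraries. All mice were young adults. Each library came from the cells of a sort. An aGvHD sort pooled several mice, whereas a control sort had fewer and could be of a single mouse. The text of the sources used here does not say whether the sort removed T cells left from the host. For the gating it refers to a figure. The control cells were never transferred, so transfer, the irradiated host, the time and the disease cannot be told apart.

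The textbook roles of the 6 genes are mostly unrelated, apart from a pair of transporters. Lcn4 encodes a lipocalin, one of a family of small secreted proteins that carry fatty or odorant molecules, and Adgrb2 encodes an adhesion G protein-coupled receptor best known from brain. Abcb4 and Abcc3 encode ATP-driven transporters best known from liver, which move phosphatidylcholine and conjugated organic anions, respectively. Rin2 encodes an exchange factor for the endosomal GTPase Rab5, and Padi3 encodes an enzyme, best known from hair follicle and skin, that converts arginine residues of proteins to citrulline.

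Over the listed genes, each library held 2143579 to 3184674 counts in the 4 Flica-negative populations and 7310375 to 11046043 in the CD8 Flica-positive libraries. These sums cover selected genes and are not the depth of a library. A normalized count below is a count divided by the size factor of its library, which was between 0.836 and 1.25.

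Cd8a, which encodes the alpha chain of CD8, was the only one of 9 T cell markers with values. It had 18353 to 21642 normalized counts in control CD8, 12817 to 14967 in CD8 Flica-negative and 9348 to 11492 in CD8 Flica-positive libraries. Control CD4 libraries had 42.5 to 117 and CD4 Flica-negative libraries 4.41 to 10.4. The CD4 and CD8 labels of all 15 libraries were thus matched by Cd8a, whereas Cd4 was not among the markers with values.

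Markers of other cell types were present and differed between the populations. The summed normalized count of 8 of 8 neutrophil markers was 96.0, 32.9 and 56.9 in control CD4, 87.2, 42.1 and 51.0 in control CD8, 1620, 2714 and 4391 in CD4 Flica-negative, 7030, 11712 and 10931 in CD8 Flica-negative, and 124597, 218135 and 207438 in CD8 Flica-positive libraries. S100a9 led in every group but control CD8, where Csf3r led with a mean of 25.8, and reached a mean of 64530 in CD8 Flica-positive cells, where Cd8a had a mean of 10759. Neutrophil markers were therefore higher in every day 7 library than in every control library, and highest in CD8 Flica-positive libraries, although the cells had been sorted as T cells.

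The summed count of 5 of 5 B cell markers was lower in every day 7 library than in every control library, and within day 7 the sum rose from CD4 Flica-negative to CD8 Flica-negative to CD8 Flica-positive libraries, led by Cd79b. The sums were 6412, 4821 and 4949 in control CD4, 6962, 4408 and 4929 in control CD8, 30.9, 67.0 and 74.5 in CD4 Flica-negative, 180.0, 190.3 and 136 in CD8 Flica-negative, and 324, 577 and 371 in CD8 Flica-positive libraries. Cd79a led in control CD4 with a mean of 1350, Pax5 in control CD8 with 1242, and Cd79b in the day 7 populations with 33.8, 149 and 219 in the order just given. In CD4 Flica-negative cells 2 of the 5 markers had no count in any library, and in CD8 Flica-negative cells 1 had none. The step of the sum from CD4 to CD8 Flica-negative libraries was mostly that of Cd79b and was not shared by all markers. Cd79a went from 9.70, 2.23 and 5.61 to 16.0, 15.9 and 11.2, but Pax5 from 4.41, 23.4 and 25.6 to 9.59, 1.87 and 0.

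Among 5 of 8 macrophage markers with values, the sum was 38.0, 30.9 and 8.00 in control CD4, 29.1, 38.5 and 30.8 in control CD8, 62.6, 77.0 and 33.6 in CD4 Flica-negative, 52.2, 63.4 and 58.7 in CD8 Flica-negative, and 1348, 1202 and 630.2 in CD8 Flica-positive libraries. The macrophage marker with the highest mean was C1qb in control CD4 (7.12), C1qc in control CD8 (12.2), Mrc1 in CD4 and CD8 Flica-negative (20.7 and 17.3) and C1qa in CD8 Flica-positive cells (262). Macrophage markers, too, were highest in CD8 Flica-positive libraries. The 4 of 6 erythroid markers with values, led by Hba-a1 in every group, set a single library apart: they summed to 110207 in CD8 Flica-positive replicate 1, against 6623 and 1343 in the other libraries of that group and 268 to 9128 elsewhere.

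The 4 megakaryocyte markers, led by Itga2b, summed to 280.2, 263 and 494 in CD8 Flica-positive libraries and to between 21.2 and 153 in the rest. The 2 of 5 dendritic cell markers with values, led by Xcr1, summed to 14.5 to 34.6 in control, 114 to 272 in Flica-negative day 7 and 249 to 598 in CD8 Flica-positive libraries. Flt3, the other marker, had 0 to 14.5 in control, 0 to 24.5 in Flica-negative day 7 and 175 to 232 in CD8 Flica-positive libraries. In CD8 Flica-positive replicate 3, Xcr1 had only 16.7. The 3 NK cell markers, led by Klrk1, which activated CD8 T cells also express, summed to 80.9 to 112 in control CD4, 374 to 800.1 in control CD8, 814 to 1032 in CD4 Flica-negative, 3911 to 5156 in CD8 Flica-negative and 2618 to 3342 in CD8 Flica-positive libraries. None of 4 endothelial markers had values.

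**Figure D1:**
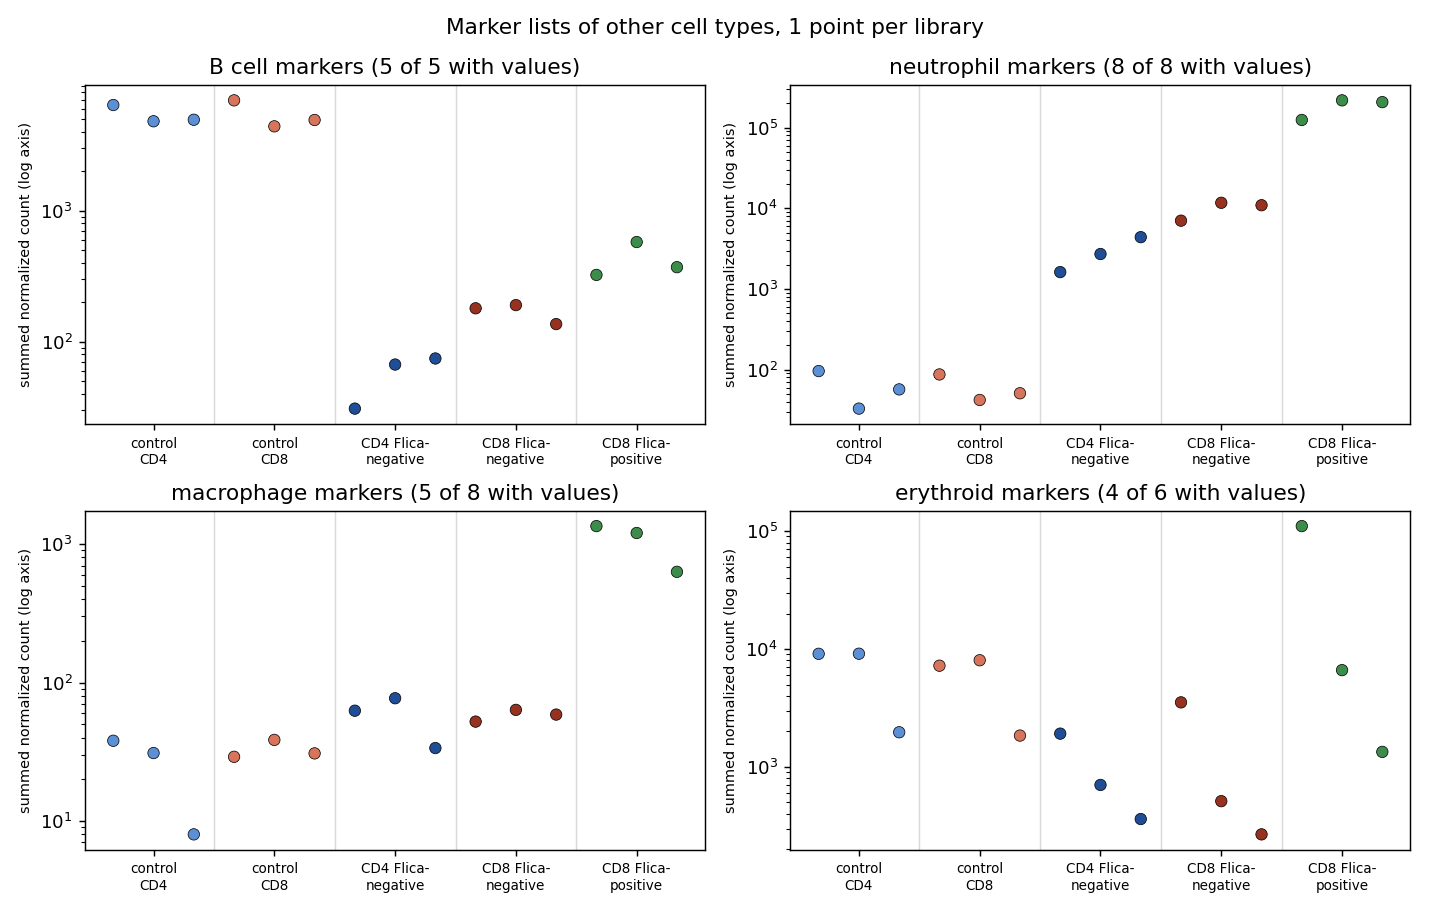
Summed normalized counts (vertical axis, log scale) of the B cell, neutrophil, macrophage and erythroid markers in each of the 15 libraries, 1 point per library and 3 per population. B cell markers are 4408 or more in the control libraries and 577 or less in the day 7 libraries, whereas neutrophil markers lie between 124597 and 218135 in the CD8 Flica-positive libraries.

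Lcn4, the secreted carrier, was a transcript of control CD8 cells. Control CD8 libraries had 669, 605 and 521 normalized counts of Lcn4, and control CD4 libraries had 17.9, 0.967 and 16.0. On day 7, CD4 Flica-negative libraries had 89.9, 146 and 108, CD8 Flica-negative libraries 115, 140.0 and 111, and CD8 Flica-positive libraries 92.6, 131 and 153. All control CD8 libraries were thus above every other library, all control CD4 libraries were below every other library, and the 3 day 7 populations overlapped with each other. The means in descending order were 598 ± 74.0 (SD, n = 3) in control CD8, 125 ± 30.6 in CD8 Flica-positive, 122 ± 15.6 in CD8 Flica-negative, 115 ± 28.7 in CD4 Flica-negative and 11.6 ± 9.27 in control CD4 cells. A mean 51.5 times as high in control CD8 as in control CD4 cells became nearly equal in the Flica-negative cells of day 7, at 1.06 times. In bulk libraries of sorted cells, fewer cells of a type and less RNA per cell cannot be told apart.

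Adgrb2, the receptor, had the same order of populations at a lower count. Its normalized counts were 174, 129 and 163 in control CD8 libraries and 4.47, 0 and 0 in control CD4 libraries. They were 7.93, 8.93 and 16.8 in CD4 Flica-negative, 32.0, 23.3 and 11.2 in CD8 Flica-negative and 29.3, 15.3 and 25.1 in CD8 Flica-positive libraries. As with Lcn4, the control CD8 libraries were above all others, the control CD4 libraries below all others, and the 3 day 7 populations overlapped. The means were 155 ± 23.2 (SD, n = 3) in control CD8, 23.2 ± 7.19 in CD8 Flica-positive, 22.2 ± 10.4 in CD8 Flica-negative, 11.2 ± 4.87 in CD4 Flica-negative and 1.49 ± 2.58 in control CD4 cells. The control CD4 mean rests on 4 counts in 1 library.

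Abcb4, the phosphatidylcholine transporter, was highest in CD8 Flica-positive cells, a population that was in neither contrast that chose the genes. Its normalized counts there were 218, 93.0 and 142. Control CD4 libraries had 4.47, 21.3 and 21.3, control CD8 libraries 8.81, 0 and 0, CD4 Flica-negative libraries 1.76, 4.46 and 0.801, and CD8 Flica-negative libraries 22.4, 12.1 and 12.9. The CD8 Flica-positive libraries were above all others. The libraries of CD4 Flica-negative cells were below those of control CD4 cells, but the nearest ones, at 4.46 and 4.47, each held 4 counts. Means were 151 ± 63.0 (SD, n = 3) in CD8 Flica-positive, 15.8 ± 5.69 in CD8 Flica-negative, 15.7 ± 9.72 in control CD4, 2.94 ± 5.09 in control CD8 and 2.34 ± 1.90 in CD4 Flica-negative cells. CD8 Flica-negative and control CD4 cells overlapped with each other, as did control CD4 with control CD8 and control CD8 with CD4 Flica-negative cells.

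Abcc3, the organic anion transporter, was the member with its highest mean in CD4 Flica-negative cells. Those libraries had 45.0, 60.3 and 126 normalized counts, against 19.0, 9.67 and 0 in control CD4. Control CD8 libraries had 8.81, 8.06 and 5.77, and CD8 Flica-negative libraries had 1.07, 0 and 0, which is a single count over the group. CD8 Flica-positive libraries had 9.38, 60.0 and 31.1. The CD4 Flica-negative libraries were above both control populations, the CD8 Flica-negative libraries were below control CD8, and the CD8 Flica-positive libraries reached from the level of control cells to that of CD4 Flica-negative cells. The means were 77.0 ± 42.9 (SD, n = 3) in CD4 Flica-negative, 33.5 ± 25.4 in CD8 Flica-positive, 9.55 ± 9.49 in control CD4, 7.55 ± 1.58 in control CD8 and 0.355 ± 0.615 in CD8 Flica-negative cells, and of the neighbours in this order only control CD8 and CD8 Flica-negative cells did not overlap.

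Rin2, the Rab5 exchange factor, was, like Abcb4, highest in CD8 Flica-positive cells, and the other populations came in a different order. CD8 Flica-positive libraries had 58.6, 71.8 and 295 normalized counts, with replicate 3 far above the others. Control CD4 libraries had 3.35, 41.6 and 35.6, with replicate 1 apart, and control CD8 libraries had 0.881, 0 and 0, a single count over the group. CD4 Flica-negative libraries had 10.6, 1.12 and 0, and CD8 Flica-negative libraries had 13.8, 7.46 and 13.8. The CD8 Flica-positive libraries were above all others, and the CD8 Flica-negative libraries were above control CD8. In CD4 cells the ranges overlapped, since control CD4 replicate 1 was below CD4 Flica-negative replicate 1. The means were 142 ± 133 (SD, n = 3) in CD8 Flica-positive, 26.8 ± 20.6 in control CD4, 11.7 ± 3.67 in CD8 Flica-negative, 3.90 ± 5.81 in CD4 Flica-negative and 0.294 ± 0.509 in control CD8 cells, and only the first of these stood apart from its neighbour.

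Padi3, the arginine deiminase, mirrored Lcn4 and Adgrb2. Control CD4 libraries had 118, 160 and 164 normalized counts, and control CD8 libraries had 3.52, 2.69 and 3.85. CD4 Flica-negative libraries had 13.2, 22.3 and 34.4, CD8 Flica-negative libraries 11.7, 18.7 and 10.4, and CD8 Flica-positive libraries 21.1, 41.2 and 41.9. Here the control CD4 libraries were above all others and the control CD8 libraries below all others. The means were 147 ± 25.0 (SD, n = 3) in control CD4, 34.7 ± 11.8 in CD8 Flica-positive, 23.3 ± 10.6 in CD4 Flica-negative, 13.6 ± 4.45 in CD8 Flica-negative and 3.35 ± 0.599 in control CD8 cells. CD8 Flica-positive overlapped with CD4 Flica-negative cells, and CD4 Flica-negative overlapped with CD8 Flica-negative cells. The control CD4 mean was 43.9 times the control CD8 mean, and on day 7 the CD4 Flica-negative mean was 1.72 times the CD8 Flica-negative mean.

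**Figure D2:**
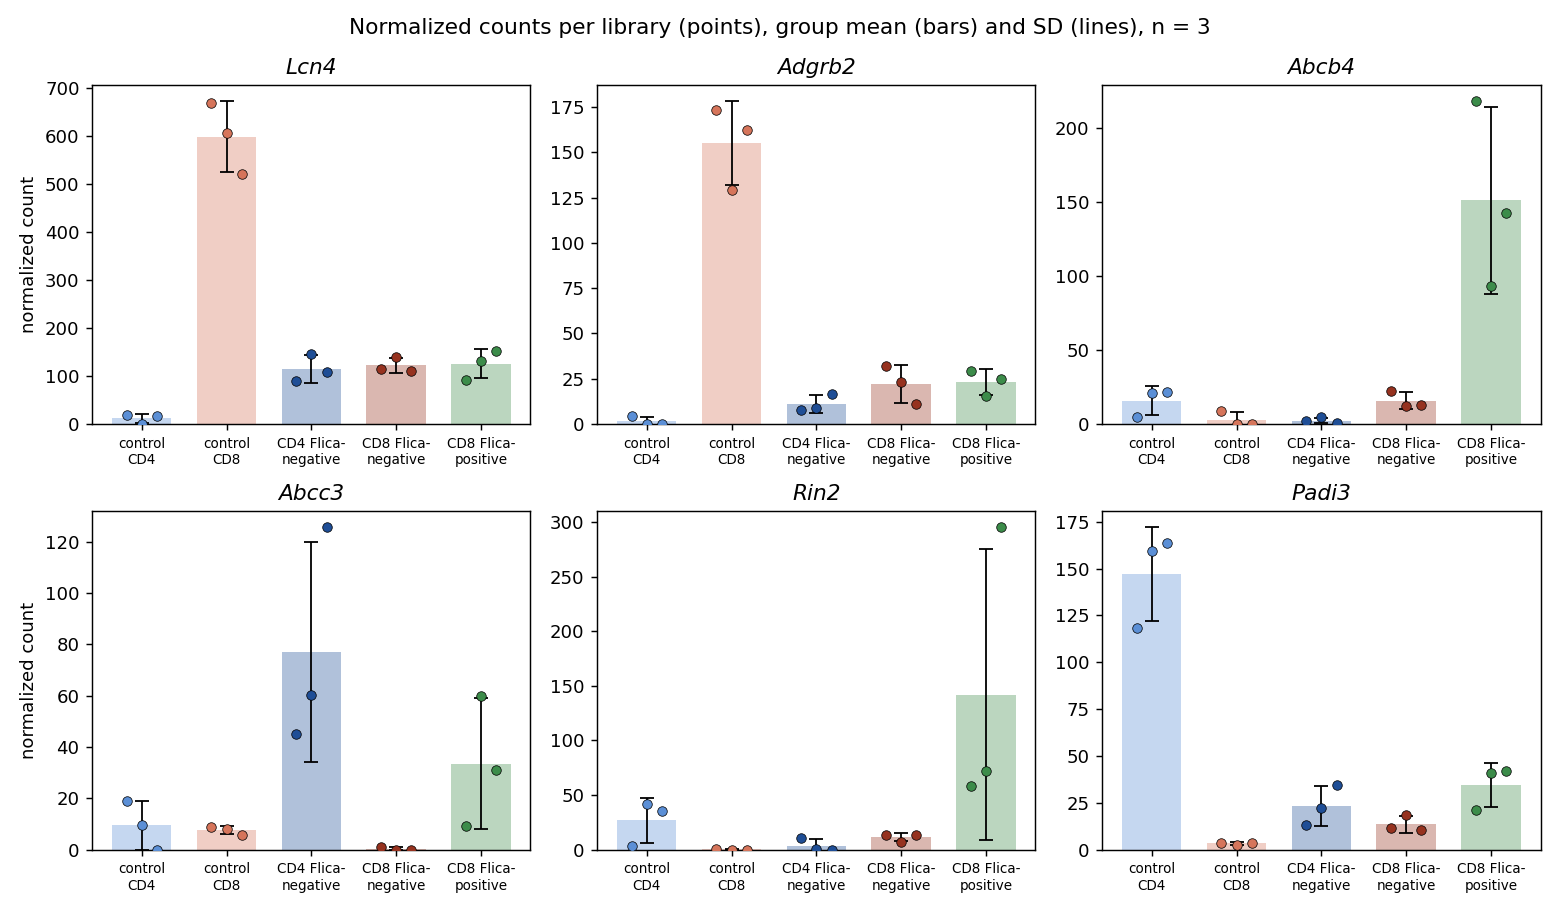
Normalized counts (vertical axes, linear from 0, a scale of its own for each gene) of the 6 genes in the 5 populations; points are libraries, bars are means and lines are SDs of 3 libraries. Lcn4 and Adgrb2 are highest in control CD8 and Padi3 in control CD4 cells, Abcb4 and Rin2 in CD8 Flica-positive cells, and Abcc3 has its highest mean in CD4 Flica-negative cells.

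The 6 genes thus held 3 kinds of pattern. For Lcn4, Adgrb2 and Padi3, the opposite directions were those of control populations that started far apart and of day 7 populations that overlapped or lay near each other. Abcb4 and Rin2 were low in control CD8 cells and intermediate in control CD4 cells, and their means had the reverse order in the Flica-negative cells of day 7. Abcc3 started at overlapping levels in control CD4 and control CD8 cells and was apart on day 7.

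The contrasts that chose the genes are given as description only, since the same values made the choice. From control CD4 to CD4 Flica-negative cells the log2 fold changes were 3.30 for Lcn4, 2.88 for Adgrb2 and 3.03 for Abcc3, and -2.72 for Abcb4, -2.74 for Rin2 and -2.65 for Padi3. From control CD8 to CD8 Flica-negative cells they were -2.29 for Lcn4, -2.81 for Adgrb2 and -4.11 for Abcc3, and 2.37 for Abcb4, 4.83 for Rin2 and 1.98 for Padi3. The fitted values of Abcc3 and Rin2 in CD8 cells depend on groups with 1 count. By counts alone, Abcc3 was 24.1-fold lower in CD8 Flica-negative than in control CD8 cells (95% exact counting interval 3.94 to 988), and Rin2 was 38.4-fold higher (6.48 to 1558). These intervals cover counting error only.

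With an edgeR adjusted p below 0.05, 3 of the 6 genes were called in CD4 cells (Lcn4, Abcc3 and Padi3), where 60.9% of the listed genes tested were called, and 4 in CD8 cells (Lcn4, Adgrb2, Abcc3 and Rin2), where 68.7% were called. Lcn4 and Abcc3 were called in both, in opposite directions, and the other 4 genes were not. Lcn4 was called in both, in opposite directions, under every alternative. Abcc3 was not under several. A minimum mean of 10 left it out of the CD8 fit before testing, at means of 7.55 in control CD8 and 0.355 in CD8 Flica-negative cells. It was tested but not called in both with the replicate number as a block. The same held without CD8 Flica-negative replicate 2 or 3, control CD8 replicate 1 or 2, or CD4 Flica-negative replicate 3. Adgrb2 and Padi3 joined Lcn4 and Abcc3 when all 15 libraries were in 1 fit, Adgrb2 without control CD4 replicate 1, and Rin2 without CD4 Flica-negative replicate 1. The same rule called 20 of 4289 listed genes, or 0.466%, in opposite directions, 12 of them higher in CD4 and lower in CD8 cells and 8 the reverse. That number was 13 without CD8 Flica-negative replicate 3 and 10 with the replicate number as a block. The 3 libraries of each group did not overlap, in opposite directions, for 5 of the 6 genes, all but Rin2, and for 41 of the 4567 listed genes, or 0.898%. Since the genes were chosen by these contrasts, these counts are not a test of the choice, and nothing is read from them.

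**Figure D3:**
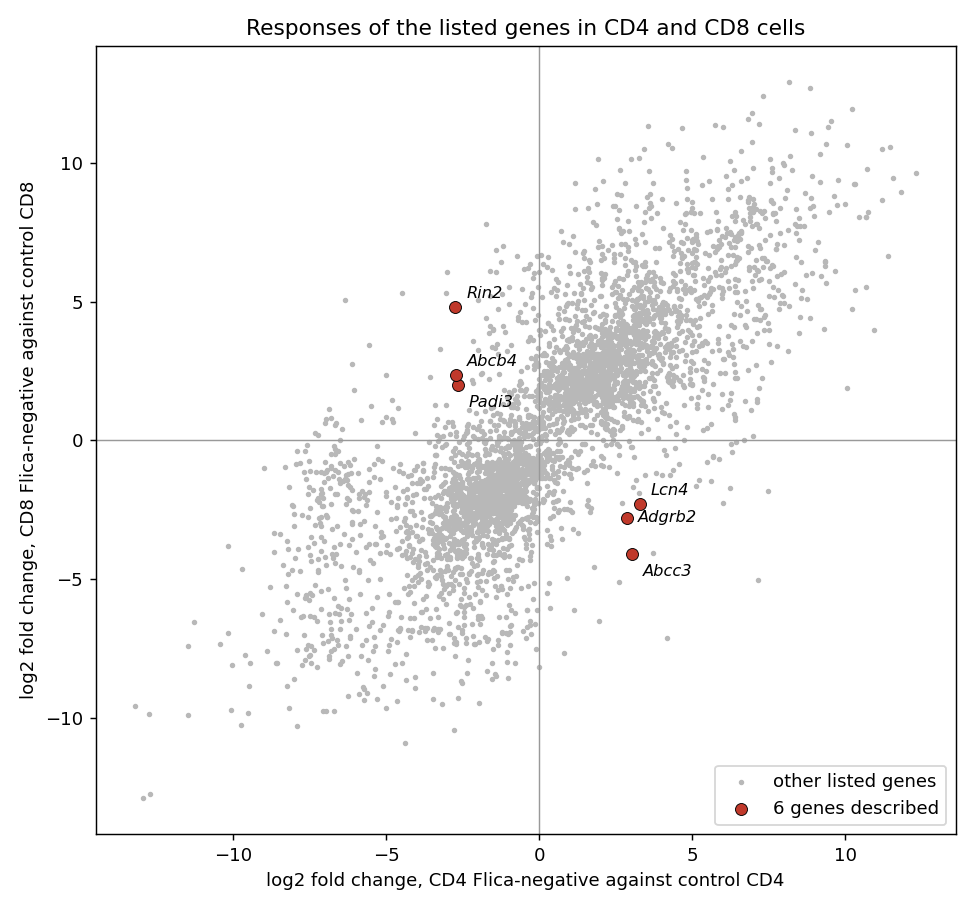
Log2 fold change from control CD4 to CD4 Flica-negative cells (horizontal axis) against that from control CD8 to CD8 Flica-negative cells (vertical axis) for the 4289 listed genes tested in both, 1 point per gene. Lcn4, Adgrb2 and Abcc3 lie at the lower right and Rin2, Abcb4 and Padi3 at the upper left.

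CD8 Flica-positive cells were compared with CD8 Flica-negative cells to ask how the 6 genes stood in day 7 cells with active caspase-1. Rin2 and Abcb4 were higher in CD8 Flica-positive cells, as were the few counts of Abcc3, and Lcn4 and Adgrb2 were not distinguishable between the populations. The CD8 Flica-positive libraries were in neither contrast that chose the genes, though the authors' mean normalized count covered all 15 libraries. The CD8 Flica-negative libraries were in such a contrast. A gene chosen for a low or a high value there therefore tends to move back in this comparison. That favours a rise of Abcc3, which was chosen as low there, so its values are description only. It does not favour a rise of Abcb4 or Rin2, which were chosen as high there. However, Abcb4, Rin2 and Abcc3 were also among the 972 genes that the authors listed for this comparison from the same libraries. Their adjusted p-values below are therefore no independent test of that listing.

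Abcb4 was 9.56 times as high, with a log2 fold change of 3.25 (SE 0.60, edgeR adjusted p = 0.00208), and all 3 CD8 Flica-positive libraries were above all CD8 Flica-negative libraries. Rin2 was 12.1 times as high, with a log2 fold change of 3.59 (SE 0.78, edgeR adjusted p = 0.00598), again in 3 of 3 libraries. Without CD8 Flica-positive replicate 3, the log2 fold change of Rin2 was 2.47 (edgeR adjusted p = 0.0255). Both genes therefore stayed past the threshold, and the size for Rin2 rested in part on 1 library.

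For Abcc3, 85 counts in CD8 Flica-positive cells stood against 1 count in CD8 Flica-negative cells, a ratio of 106 with a 95% exact counting interval of 18.5 to 4240 (edgeR adjusted p = 0.0169, higher in 3 of 3 libraries). This call was lost when the replicate number was used as a block (edgeR adjusted p = 0.0502), and without CD8 Flica-negative replicate 2 (0.0772) or 3 (0.0612) or CD8 Flica-positive replicate 2 (0.0778). The fitted log2 fold change of 6.19 became 8.00 without CD8 Flica-negative replicate 1, which holds the single count, and 5.47 without CD8 Flica-positive replicate 2.

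Padi3 was 2.56 times as high in CD8 Flica-positive cells, with all 3 libraries above those of CD8 Flica-negative cells, but did not pass the test (log2 fold change 1.35, SE 0.92, edgeR adjusted p = 0.302). Its log2 fold change with TMM scaling was 0.74 (edgeR adjusted p = 0.588). Lcn4 had a log2 fold change of 0.04 (SE 0.42, edgeR adjusted p = 0.956) and Adgrb2 one of 0.07 (SE 0.94, edgeR adjusted p = 0.963), and both overlapped between the populations. With TMM scaling over the listed genes, these values became -0.56 for each, with edgeR adjusted p = 0.334 for Lcn4 and 0.700 for Adgrb2. No direction is given for Lcn4 and Adgrb2 in this comparison.

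In all, 3 of the 6 genes were called, each of them higher and with Abcc3 as description only, where 24.5% of 4286 listed genes tested were called and 21.7% were called higher. The median log2 fold change of all genes tested was 0.45 with the authors' size factors and -0.11 with TMM scaling, and the share of calls that were higher went from 88.6% to 61.7%. Relative to the first median, the log2 fold changes were 5.74 for Abcc3, 3.13 for Rin2, 2.80 for Abcb4, 0.89 for Padi3, -0.38 for Adgrb2 and -0.41 for Lcn4. With TMM scaling, Rin2 (2.93), Abcb4 (2.65) and Abcc3 (5.61) were still called.

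The summed neutrophil, macrophage, megakaryocyte and B cell markers rose with Abcb4, Rin2 and Abcc3 in this comparison in 3 of 3 libraries. The dendritic cell and erythroid sums did so in 2 of 3. The NK cell sum fell in 3 of 3, though its marker Ncr1 did not. The values of the CD8 Flica-negative and CD8 Flica-positive libraries are given above. Whether RNA of other cell types had a part in the values of Abcb4, Rin2 and Abcc3 was not tested.

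Against control CD8 cells, CD8 Flica-positive cells had less Lcn4 and Adgrb2 and more Abcb4, Rin2 and Padi3. The control CD8 libraries were also used in choosing the genes, and they serve as controls for both CD8 populations. Lcn4 was 4.77-fold lower, with a log2 fold change of -2.25 (SE 0.34, edgeR adjusted p = 0.000475), and Adgrb2 was 6.67-fold lower, with -2.73 (SE 0.61, edgeR adjusted p = 0.00466). Both were lower in 3 of 3 libraries. Beside these values, CD8 Flica-negative cells had log2 fold changes of -2.29 for Lcn4 and -2.81 for Adgrb2 against the same controls. From control CD8 to CD8 Flica-positive libraries, the sum of B cell markers fell as Lcn4 and Adgrb2 did. The sums of neutrophil, macrophage, dendritic cell, megakaryocyte and NK cell markers rose as Abcb4, Rin2 and Padi3 did, though not every marker of each list rose in every library. Whether other cell types had a part in these changes was not tested.

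Abcb4 had a log2 fold change of 5.61 (SE 1.39, edgeR adjusted p = 0.00752) and was higher in 3 of 3 libraries. Without control CD8 replicate 1, which holds all 10 counts of that group, its log2 fold change was 10.15 (edgeR adjusted p = 0.00134), so its size is set by that library while its direction is not. For Rin2, 358 counts stood against 1, a ratio of 464 with a 95% exact counting interval of 82.8 to 18385 (edgeR adjusted p = 0.000710, higher in 3 of 3 libraries). Its fitted log2 fold change of 8.37 became 10.06 without control CD8 replicate 1 and 7.26 without CD8 Flica-positive replicate 3.

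Padi3 was 10.4 times as high as in control CD8 cells in 3 of 3 libraries, with a log2 fold change of 3.32 (SE 1.01, edgeR adjusted p = 0.0175). This call was lost with TMM scaling (log2 fold change 1.65, edgeR adjusted p = 0.169) and without control CD8 replicate 1 (0.0578) or 2 (0.0688). Abcc3 was 4.44 times as high, with every CD8 Flica-positive library above the control CD8 libraries, but did not pass the test (log2 fold change 2.13, SE 1.05, edgeR adjusted p = 0.0916). It passed with DESeq2 (adjusted p = 0.0329) and without CD8 Flica-positive replicate 1 (edgeR adjusted p = 0.0394), the library with the high erythroid markers. Without CD8 Flica-positive replicate 2 the log2 fold change of Abcc3 was 1.41 (edgeR adjusted p = 0.304). With TMM scaling the log2 fold change of Abcc3 was 0.45 (edgeR adjusted p = 0.702).

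Of the 6 genes 5 were called in this comparison, where 71.5% of 4538 listed genes tested were called. Lcn4 and Adgrb2 were chosen as higher, and Abcb4, Rin2 and Padi3 as lower, in these same control CD8 libraries than in CD8 Flica-negative cells, so each called direction is the one that the choice favours, and the calls are description only. Among the called genes 3 were higher, against 47.2% of all genes tested, and 2 were lower, against 24.2%. The median log2 fold change of all genes tested was 2.04 and became 0.38 with TMM scaling, and the share of calls that were higher went from 66.1% to 43.4%. Relative to the first median, Lcn4 stood at -4.29, Adgrb2 at -4.77, Rin2 at 6.33, Abcb4 at 3.57, Padi3 at 1.29 and Abcc3 at 0.09. With TMM scaling the log2 fold changes were -3.95 for Lcn4, -4.38 for Adgrb2, 6.76 for Rin2 and 3.99 for Abcb4, all still called in the same direction.

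**Figure D4:**
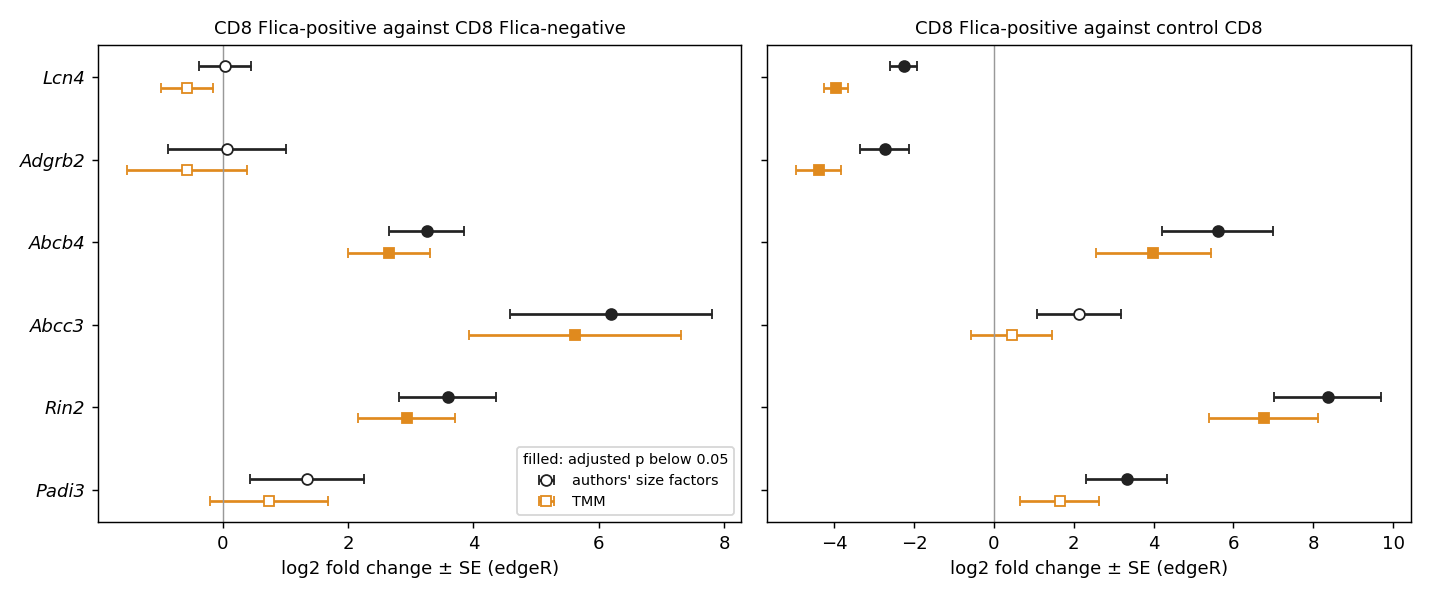
Log2 fold change (horizontal axes) with its SE for each of the 6 genes in CD8 Flica-positive cells against CD8 Flica-negative cells (left) and against control CD8 cells (right), by edgeR with the authors' size factors (circles) and with TMM scaling (squares); filled symbols have an adjusted p below 0.05. Abcb4 and Rin2 are called higher in both comparisons under both scalings, whereas Lcn4 and Adgrb2 lie between -0.56 and 0.07 on the left and between -4.38 and -2.25 on the right.

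Across the 15 libraries, 2 pairs of the 6 genes had similar patterns. On log2(normalized count + 1), Pearson's r was 0.92 between Lcn4 and Adgrb2 and 0.89 between Rin2 and Abcb4. Padi3 ran against Lcn4 (r = -0.88) and Adgrb2 (r = -0.89), and Abcc3 had r between -0.11 and 0.10 with each of the other members. These values describe libraries that fall into 5 populations, so they mainly restate the order of the group means.

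Among 3732 listed genes with a symbol and a mean of at least 10 normalized counts, Adgrb2 was the gene most like Lcn4, followed by Mcoln2 (r = 0.88, n = 15), which encodes an endolysosomal cation channel and had means of 472 in control CD8 and 55.4 in control CD4 cells. Unlike Lcn4, Mcoln2 stayed near its control level in CD8 Flica-negative cells, with a mean of 436, and had 327 in CD4 Flica-negative and 314 in CD8 Flica-positive cells. Lcn4 was the gene most like Adgrb2, followed by Samd3 (r = 0.89), with 524 in control CD8, 31.6 in control CD4, 46.4 in CD4 Flica-negative, 116 in CD8 Flica-negative and 71.2 in CD8 Flica-positive cells. For Padi3 they were Bcam (r = 0.87), which encodes a laminin-binding adhesion molecule, and Myo10 (r = 0.85), which encodes an unconventional myosin of filopodia. Both were highest in control CD4 cells, with means of 41.6 and 1188, and lowest in control CD8 cells, with 1.17 and 29.4.

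Abcb4 was most like Rin2, and then Sirpb1c (r = 0.87), a signal regulatory protein gene with a mean of 163 in CD8 Flica-positive and 9.56 in CD8 Flica-negative cells. Rin2 was most like Abcb4, and then Gata2 (r = 0.86), which encodes a transcription factor of blood progenitors and mast cells and had a mean of 327 in CD8 Flica-positive and 6.68 in CD8 Flica-negative cells. Abcc3 had the lowest likeness to any other gene, with r = 0.78 for both Scin, which encodes an actin-severing protein, and Slc2a6, which encodes a sugar transporter. Scin had means of 182 in CD4 Flica-negative and 11.8 in CD8 Flica-positive cells and no count in CD8 Flica-negative cells, and Slc2a6 had 94.5, 105 and 21.0 in the same order.

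Related genes did not share one direction with the members. Their calls stand beside shares of all listed genes called of 24.5% for CD8 Flica-positive against CD8 Flica-negative cells, and against controls 71.5% for CD8 Flica-positive, 68.7% for CD8 Flica-negative and 60.9% for CD4 Flica-negative cells. The medians of all listed genes tested were 0.45, 2.04, 0.61 and 0.09 in the same order. Of 25 lipocalins and related carriers, Lcn2 and Orm1 had values besides Lcn4, and both were called higher in CD8 Flica-positive than in CD8 Flica-negative cells and than in control CD8 cells, where Lcn4 was not called and lower, respectively. Lcn2, a neutrophil granule protein, had means of 1.39 in control CD4, 7.48 in control CD8, 531 in CD4 Flica-negative, 1597 in CD8 Flica-negative and 32049 in CD8 Flica-positive cells, and Orm1, an acute phase carrier, had 15.2, 16.0, 11.3, 24.7 and 517. Lcn2 was called higher in both Flica-negative populations against control cells and Orm1 in neither. Lcn2 thus moved the same way in CD4 and CD8 cells, unlike Lcn4.

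Of 30 adhesion G protein-coupled receptors, 9 had values besides Adgrb2. In CD8 Flica-negative against control CD8 cells 1 of 9 was called higher and 5 lower, with a median log2 fold change of -1.57, and in CD4 cells 1 was called higher and 1 lower, with a median of -1.03. Adgrg3 was called in opposite directions, as Lcn4 and Abcc3 were: its means were 99.0 and 194 in control CD4 and CD4 Flica-negative cells, and 180 and 98.2 in control CD8 and CD8 Flica-negative cells, with log2 fold changes of 0.97 (SE 0.32, edgeR adjusted p = 0.0222) and -0.87 (SE 0.34, edgeR adjusted p = 0.0430). Adgrg5, the most abundant, resembled Adgrb2 in control cells, with means of 4550 in control CD8 and 26.8 in control CD4 cells, and was 65.1 and 448 in CD4 and CD8 Flica-negative cells. It was called lower in CD8 Flica-negative cells (log2 fold change -3.34, SE 0.24, edgeR adjusted p = 1.66e-06) and was not called in CD4 Flica-negative cells (1.27, SE 0.62, edgeR adjusted p = 0.0948). Adgrg1, next in abundance, had means of 2.35 in control CD8, 847 in CD8 Flica-negative and 1073 in CD8 Flica-positive cells. Against CD8 Flica-negative cells, 3 of 8 tested were called higher in CD8 Flica-positive cells and 0 lower (median 1.62), and against control CD8 cells 4 of 9 higher and 3 lower (median 0.12).

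Of 53 ABC transporters, 6 had values besides Abcb4 and Abcc3. They were called higher and lower in numbers of 3 and 2 in CD4 Flica-negative cells, 4 and 2 in CD8 Flica-negative cells and 3 and 2 in CD8 Flica-positive cells, each against controls, with medians of 2.14, 1.15 and 1.12. Against CD8 Flica-negative cells 2 were higher and 1 lower in CD8 Flica-positive cells (median 1.07). The most abundant was Abcb1a, a multidrug transporter closely related to Abcb4, with means of 205 in control CD4, 651 in control CD8, 927 in CD4 Flica-negative, 1203 in CD8 Flica-negative and 704 in CD8 Flica-positive cells. Abcb1a was the gene called lower in CD8 Flica-positive than in CD8 Flica-negative cells (log2 fold change -0.77, SE 0.21, edgeR adjusted p = 0.0225), where Abcb4 was called higher. Abca1, a cholesterol exporter, fell from a mean of 1384 in control CD8 to 43.5 in CD8 Flica-negative cells and from 859 in control CD4 to 420 in CD4 Flica-negative cells.

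Of 5 peptidyl arginine deiminases, Padi4 had values besides Padi3. Padi4, which neutrophils use to citrullinate histones, had means of 27.2 in control CD4, 0.587 in control CD8, 53.6 in CD4 Flica-negative, 56.7 in CD8 Flica-negative and 1266 in CD8 Flica-positive cells. It was called higher in CD8 Flica-positive than in CD8 Flica-negative cells (log2 fold change 4.48, SE 0.34, edgeR adjusted p = 5.99e-06), where Padi3 was not called. In CD8 Flica-negative against control CD8 cells it was called higher, and in CD4 Flica-negative against control CD4 cells it was not called.

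Of 24 genes of the Rin family and other Rab5 regulators, 4 had values besides Rin2. Rab31 was the one called higher in CD8 Flica-positive than in CD8 Flica-negative cells, with none lower and a median of -0.27. Against controls, 2 were called higher and 2 lower in both CD8 populations (medians 0.43 for Flica-positive and -0.13 for Flica-negative cells), and 1 higher and 2 lower in CD4 Flica-negative cells (median -0.57). The most abundant, Als2cl, fell in CD4 and CD8 alike, from means of 19651 and 15250 in control CD4 and control CD8 to 1542 and 702 in the Flica-negative cells. Eea1, a Rab5 effector of early endosomes, rose in both, from 348 and 205 to 2713 and 1824. Neither was called in opposite directions.

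Levels can be set beside each other between genes only per length. Per kilobase of merged exons, Lcn4 had the highest mean of the 6 genes in control CD8 cells (773 normalized counts per kb) and in each day 7 population (148 in CD4 Flica-negative, 158 in CD8 Flica-negative and 162 in CD8 Flica-positive cells). In control CD4 cells Padi3 was highest, with 42.7 per kb beside 15.01 for Lcn4. Adgrb2 reached 23.9 per kb in control CD8 cells. The highest means of the other genes were 16.1 per kb for Abcb4 and 12.6 for Rin2 in CD8 Flica-positive cells and 13.5 for Abcc3 in CD4 Flica-negative cells. The merged exons are 774 bases long for Lcn4 and 11271 for Rin2.

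The genes lie on 4 chromosomes of GRCm38 and all are protein-coding. Lcn4 (ENSMUSG00000026919) is at chr2:26667674-26671282 on the minus strand and Rin2 (ENSMUSG00000001768) at chr2:145675215-145887616 on the plus strand. Adgrb2 (ENSMUSG00000028782) is at chr4:129984870-130022633 on the plus strand and Padi3 (ENSMUSG00000025328) at chr4:140785365-140810648 on the minus strand. Abcb4 (ENSMUSG00000042476) is at chr5:8893717-8959231 on the plus strand and Abcc3 (ENSMUSG00000020865) at chr11:94343295-94392997 on the minus strand. Padi3 lies among its paralogs, 11128 bases from Padi4 and 2334 bases from Padi1, and Abcb4 lies 27401 bases from its paralog Abcb1b. A processed pseudogene on the opposite strand and a miRNA gene on the same strand lie within Rin2, and a processed pseudogene on the same strand lies within Abcb4. How reads that match several genes were counted, and whether strand was used, is not given in the sources used here, so a share of reads from these copies in the counts of Rin2 and Abcb4 was not tested.

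The promoters of Lcn4 and Adgrb2 are shown because these genes had the same order of populations, and that of Padi3 because it had nearly the reverse. The sequences are the 250 bases before the RefSeq gene start on GRCm38.p6, on the strand of the gene and outside annotated exons: chr2:26671283-26671532 for Lcn4 (minus strand), chr4:129984620-129984869 for Adgrb2 (plus strand) and chr4:140810649-140810898 for Padi3 (minus strand). Capitals mark matches, on either strand, to an E-box (CANNTG) or a GC box (GGGCGG).
Lcn4: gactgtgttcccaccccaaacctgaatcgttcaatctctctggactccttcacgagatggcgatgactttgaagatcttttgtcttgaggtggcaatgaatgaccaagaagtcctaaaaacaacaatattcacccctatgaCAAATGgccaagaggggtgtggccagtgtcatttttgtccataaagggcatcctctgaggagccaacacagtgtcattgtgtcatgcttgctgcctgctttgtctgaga
Adgrb2: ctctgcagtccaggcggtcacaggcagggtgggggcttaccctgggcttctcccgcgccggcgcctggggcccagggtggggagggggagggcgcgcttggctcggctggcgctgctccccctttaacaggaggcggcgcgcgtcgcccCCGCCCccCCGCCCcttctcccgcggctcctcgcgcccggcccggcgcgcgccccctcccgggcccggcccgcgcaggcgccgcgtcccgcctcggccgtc
Padi3: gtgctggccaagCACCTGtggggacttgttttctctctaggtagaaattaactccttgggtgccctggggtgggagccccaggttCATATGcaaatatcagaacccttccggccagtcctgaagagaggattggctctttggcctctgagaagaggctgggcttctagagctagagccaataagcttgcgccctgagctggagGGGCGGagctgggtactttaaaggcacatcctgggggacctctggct

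The Lcn4 window held 1 E-box and no GC box, the Adgrb2 window 2 GC boxes and no E-box, and the Padi3 window 2 E-boxes and 1 GC box. The bases G and C made up 46.8% of the Lcn4, 81.6% of the Adgrb2 and 56.0% of the Padi3 window, with a median of 52.4% over all 32851 promoters of this length. An E-box was found in 66.2% of those promoters and a GC box in 32.7%. Letters of a T-box site (GGTGTGA, in 3.33% of all promoters), a Runx site (TGTGGT, 14.0%), an AP-1 site (TGANTCA, 6.75%) and a TATA box (TATAAA, 12.4%) were in none of the 5 windows of members with a promoter sequence, which were those of Lcn4, Adgrb2, Padi3, Rin2 and Abcb4. The Rin2 window (chr2:145785866-145786115) lies within the gene given above, with 136 of its 250 bases in annotated exons. In the Abcb4 window 4 bases are in annotated exons. Lcn4 and Adgrb2 thus shared an order of expression across the 5 populations and none of the 6 motifs searched.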

How the data were processed

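RNA of 15 libraries was sequenced after oligo-dT capture. The submitters' processing notes name STAR 2.7.1a, DESeq2 and GRCm38. The authors deposited, for each of 4 comparisons, a table of selected genes with whole-number read counts of all 15 libraries, which were not normalized. The signal column of each table, as deposited, is the authors' mean normalized count over the 15 libraries. The tables also hold the authors' fold changes, standard errors, test statistics and p-values, which were not used, and tables of enriched terms were not used either.

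Size factors were solved from the deposited means (largest relative error 5.8e-15). Genes with at least 10 counts over the compared libraries were tested with edgeR 4.0.16 (quasi-likelihood, 2 groups per fit, R 4.3.3, limma 3.58.1), with Benjamini-Hochberg adjustment over all listed genes tested. The test was tried on simulated data. These genes were selected by the authors on the same libraries, so a share of genes called is a share of listed genes. The adjusted p-values are likewise over selected genes only. Replicates are sorts, and p-values measure the spread between them. Alternatives were TMM scaling, DESeq2 1.42.0, no filter, a minimum mean of 10, all 15 libraries in 1 fit, the replicate number as a block and leaving out each library. Counting intervals are exact, at 95%, and cover counting error only (Python 3.11.15, pandas 2.3.3, numpy 2.4.6, scipy 1.17.1, matplotlib 3.10.9). Positions and exon lengths are from GENCODE M21, and promoter sequences from RefSeq; Abcc3 had none in that table.

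Named genes are the 6 members, the 2 genes most like each over 15 libraries, the listed relatives of each member that were called in opposite directions or were the 2 most abundant, and the leading marker of each cell type in each group; Rab31 was named after its values were seen. The members and lists were chosen with earlier results of these data known.

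Deviations of CD8 Flica-positive and CD8 Flica-negative libraries with the same number correlated at 0.115, 0.0346 and 0.0655 over 4286 genes, and at 0.301, 0.135 and 0.220 over the 1701 genes whose mean was 100 or more, a limit set after the fits were seen. At both limits, each CD8 Flica-positive library correlated best with the CD8 Flica-negative library of its own number. The paper describes sorting stained splenocytes into these groups, but the labels do not say that equal numbers share a sort. A pairing is thus possible but not settled. The main test does not use it, and the blocked value is given where it ends a call.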

Additional observations from a re-analysis of the deposited data

Results flagged for a closer look

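For 5 of the 6 genes the libraries of the Flica-negative cells lay wholly to one side of their controls in both lineages, in opposite directions. The same held for 41 of the 4567 listed genes, or 0.898%. The opposite directions of the members' means were fixed by the choice of the genes, so nothing is read from these counts. The difference between the CD4 and the CD8 response was not tested. Lcn4 had a log2 fold change of 3.30 in CD4 and -2.29 in CD8 cells, and Abcc3 had 3.03 and -4.11, each called by edgeR. Adgrb2 had 2.88 (edgeR adjusted p = 0.144, not called) and -2.81 (called). Padi3 had -2.65 (called) and 1.98 (edgeR adjusted p = 0.0934, not called). Abcb4 had -2.72 and 2.37, called in neither (edgeR adjusted p = 0.0833 and 0.162), with its nearest CD4 libraries at 4.46 and 4.47.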

How the results depend on the processing

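The libraries are bulk, the tables hold selected genes, and the controls were not transplanted. Groups with few counts set the size of the Abcc3 change between the CD8 day 7 populations and of the Rin2 and Abcb4 changes against control CD8 cells.

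With TMM scaling, Lcn4 and Adgrb2 between CD8 Flica-positive and CD8 Flica-negative cells went from 0.04 and 0.07 to -0.56 each. Neither was called under either scaling, so no direction is read from these values. Padi3 against control CD8 cells went to 1.65, no longer called. DESeq2 called Abcc3 in that last comparison (2.15).

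With a library left out, Lcn4 between the CD8 day 7 populations ranged from -0.13 to 0.22 (-0.00210 and -0.02 without CD8 Flica-negative replicate 1 or 3). Adgrb2 ranged from -0.25 to 0.43 (-0.13 without CD8 Flica-positive replicate 1). Neither was called in any of these fits. The others ranged over 2.47 to 3.96 for Rin2, 1.18 to 1.64 for Padi3, 2.89 to 3.58 for Abcb4 and 5.47 to 8.00 for Abcc3 (5.73 and 5.69 without CD8 Flica-negative replicate 2 or 3, not called). Against control CD8 cells the ranges were -2.42 to -2.08 for Lcn4, 7.26 to 10.06 for Rin2, -2.93 to -2.50 for Adgrb2, 3.17 to 3.58 for Padi3 (3.36 and 3.19 without control replicate 1 or 2, not called), 5.04 to 10.15 for Abcb4 and 1.41 to 2.57 for Abcc3. Listed genes called were 685 to 1010 (fewest without CD8 Flica-negative replicate 2) and 2754 to 3264, with 2 to 3 and 4 to 6 members. For the Flica-negative cells against controls they were 2718 to 2916 in CD8 and 2321 to 2539 in CD4 cells, and 13 to 20 were called in opposite directions.

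With the replicate number as a block, Abcc3 went to 5.99 (not called) between the CD8 day 7 populations, and no other member changed its call there. Control libraries share only a number with the others, and not every library correlated best with its own number there. With that block, Padi3 against control CD8 cells was 3.27 (adjusted p = 0.138) and Abcc3 1.84 (0.360), Abcb4 was 6.85 in place of 5.61 (called in both), 2107 listed genes were called in place of 3244, and 10 in place of 20 in opposite directions, with Lcn4 as the only member.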
